A study of Mus musculus with 4 samples.

Results

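The promoters of the cytochrome P450 genes were taken from a table of H3K9me2 ChIP-seq reads in mouse aortic smooth muscle. They were chosen by gene symbol alone, as every promoter whose symbol begins with Cyp and a digit, which gave 82 of the 26354 promoters listed. Of these, 60 belonged to the Cyp2, Cyp3 and Cyp4 families (40, 5 and 15 promoters), and 22 belonged to other families, among them Cyp51, Cyp27a1 and Cyp1b1. GENCODE M21, the gene annotation used here for positions, holds 100 protein-coding genes with such symbols. Of these, 79 had a row under the same symbol, and the others were not analysed here under their GENCODE symbols. The members Cyp2c44 and Cyp2j7-ps match the RefSeq genes Cyp2c23 and Cyp2j7. By symbol, 2 members were pseudogenes (Cyp2j7-ps and Cyp2d37-ps).

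The tissue was the medial layer of the aorta from male C57Bl/6J mice, taken straight from the animal without culture, after the adventitial and endothelial layers had been removed by hand. There were 2 experiments, v102 and v134, each with 1 library from chromatin precipitated with an antibody to H3K9me2 and 1 library from its own input chromatin. All 4 libraries came from the same strain, sex and tissue with no treatment or genotype to compare, so the comparison was ChIP against input. The ages of the animals and the number pooled for each experiment are not given in the sources used here.

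H3K9me2 is dimethylation of lysine 9 of histone H3, a mark laid down mainly by the methyltransferases G9a and GLP and found over broad stretches of silent chromatin. Cytochrome P450 enzymes are haem proteins that oxidise small molecules with electrons passed on by P450 oxidoreductase or, in mitochondria, by adrenodoxin. Members of the Cyp2, Cyp3 and Cyp4 families metabolise drugs, other foreign compounds and fatty acids, are expressed most strongly in liver, kidney and intestine, and mostly lie in arrays of related genes that arose by duplication. Most families outside these have 1 or a few genes with set tasks in the synthesis of steroid hormones, bile acids and cholesterol, and in the turnover of vitamin D and retinoic acid.

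The promoters differed widely in CpG dinucleotides, the sites of DNA methylation. The 300 bases around the start site, from 250 before it to 50 after it, are shown from RefSeq (build GRCm38.p6), 5′ to 3′ on the strand of the gene, with every CG dinucleotide in capitals. The first 3 are 1 promoter from each of the Cyp2, Cyp3 and Cyp4 families, the one with the highest log2 fold change over input among the members of its family with a RefSeq promoter, the next 3 are the members of small families named above, and the last 2 are members below input, one rich and one poor in CG.
Cyp2b23 (chr7:26686381-26686680, minus strand): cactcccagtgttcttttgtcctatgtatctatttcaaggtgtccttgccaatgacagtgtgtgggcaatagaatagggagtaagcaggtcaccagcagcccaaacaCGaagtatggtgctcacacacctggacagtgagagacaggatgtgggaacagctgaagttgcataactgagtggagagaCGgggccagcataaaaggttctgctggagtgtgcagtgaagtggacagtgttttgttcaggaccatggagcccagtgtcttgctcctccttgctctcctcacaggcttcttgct
Cyp3a57 (chr5:145345019-145345318, plus strand): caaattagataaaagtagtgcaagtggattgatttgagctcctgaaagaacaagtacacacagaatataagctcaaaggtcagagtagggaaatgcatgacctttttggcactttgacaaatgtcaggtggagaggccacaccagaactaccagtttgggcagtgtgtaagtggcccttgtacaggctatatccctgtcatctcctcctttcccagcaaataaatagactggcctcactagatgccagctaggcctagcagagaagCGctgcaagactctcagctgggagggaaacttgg
Cyp4b1 (chr4:115647672-115647971, minus strand): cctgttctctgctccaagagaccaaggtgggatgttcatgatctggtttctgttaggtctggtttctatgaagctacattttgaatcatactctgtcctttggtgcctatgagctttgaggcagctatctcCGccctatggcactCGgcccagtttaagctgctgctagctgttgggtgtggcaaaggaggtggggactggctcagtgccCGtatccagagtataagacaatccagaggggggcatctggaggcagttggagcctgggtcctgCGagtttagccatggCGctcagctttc
Cyp51 (chr5:4104648-4104947, minus strand): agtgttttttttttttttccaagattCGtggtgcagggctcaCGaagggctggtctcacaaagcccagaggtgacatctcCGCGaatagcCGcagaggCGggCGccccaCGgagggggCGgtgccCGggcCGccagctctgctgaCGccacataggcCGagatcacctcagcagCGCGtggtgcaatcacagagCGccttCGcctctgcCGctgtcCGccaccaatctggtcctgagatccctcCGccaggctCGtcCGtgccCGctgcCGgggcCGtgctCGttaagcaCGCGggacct
Cyp27a1 (chr1:74713285-74713584, plus strand): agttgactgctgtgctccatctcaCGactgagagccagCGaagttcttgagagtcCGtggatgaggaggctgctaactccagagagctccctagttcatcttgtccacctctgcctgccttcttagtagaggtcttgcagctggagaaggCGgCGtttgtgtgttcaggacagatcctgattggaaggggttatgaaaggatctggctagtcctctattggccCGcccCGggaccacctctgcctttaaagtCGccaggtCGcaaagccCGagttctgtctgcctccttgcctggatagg
Cyp1b1 (chr17:79715012-79715311, minus strand): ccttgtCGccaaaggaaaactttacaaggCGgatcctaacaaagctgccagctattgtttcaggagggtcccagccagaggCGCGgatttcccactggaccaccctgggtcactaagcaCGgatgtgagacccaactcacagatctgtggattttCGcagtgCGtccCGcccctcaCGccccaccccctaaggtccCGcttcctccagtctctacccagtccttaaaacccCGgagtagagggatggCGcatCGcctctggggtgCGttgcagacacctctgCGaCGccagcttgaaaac
Cyp46a1 (chr12:108334066-108334365, plus strand): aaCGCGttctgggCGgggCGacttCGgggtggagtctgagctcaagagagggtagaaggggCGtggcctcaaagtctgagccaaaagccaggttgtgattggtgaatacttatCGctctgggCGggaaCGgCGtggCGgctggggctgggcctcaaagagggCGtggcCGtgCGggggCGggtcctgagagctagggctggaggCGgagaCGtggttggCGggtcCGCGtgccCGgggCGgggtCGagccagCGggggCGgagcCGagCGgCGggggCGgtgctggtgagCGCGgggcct
Cyp4f13 (chr17:32947312-32947611, minus strand): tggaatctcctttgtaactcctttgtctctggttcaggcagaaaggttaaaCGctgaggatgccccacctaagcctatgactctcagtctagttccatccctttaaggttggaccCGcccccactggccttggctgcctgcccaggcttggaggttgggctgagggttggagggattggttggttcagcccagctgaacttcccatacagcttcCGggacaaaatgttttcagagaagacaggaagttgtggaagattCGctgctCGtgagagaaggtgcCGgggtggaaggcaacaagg
The windows of Cyp2b23, Cyp3a57 and Cyp4b1 held 2, 1 and 5 CG dinucleotides, whereas those of Cyp51, Cyp27a1 and Cyp1b1 held 28, 10 and 16. Cyp46a1 had 31 and Cyp4f13 had 6. A RefSeq promoter was found for 60 of the 82 members. The median number of CG dinucleotides was 2.5 in 46 Cyp2, Cyp3 and Cyp4 promoters and 8 in 14 promoters of other families, compared with 15 in 15151 promoters of the table. Among the 14, the RefSeq start sites of Cyp1a1 and Cyp11a1 lay 9685 and 8387 bases from those of GENCODE. Their RefSeq sequences are therefore not from the windows placed by GENCODE. Which start sites the authors used is not known, so the CpG content of these 2 promoters, taken from the GENCODE windows below, is uncertain too. The letters TATAAA, searched on both strands as a TATA box, were present in 34.8% of the Cyp2, Cyp3 and Cyp4 windows, 35.7% of the windows of other families and 12.4% of all windows.

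For each promoter, the authors counted the reads within 1 kb on either side of the start site and divided the ChIP reads of both experiments by the input reads of both, which gives the H3K9me2/input ratio. This ratio is not scaled for library size. Over all promoters the ChIP libraries held 162233 and 229605 reads (v102 and v134) and the input libraries 619100 and 1084349, and the median promoter had a ratio of 0.162. At the median member there were 7.5 and 11.5 ChIP reads and 18 and 36 input reads, so single promoters were measured with low precision. ChIP and input counts were compared at all promoters in 1 fit with the edgeR quasi-likelihood test, 2 libraries against 2, and a promoter is called above or below input where the Benjamini-Hochberg adjusted p was under 0.05. The libraries were scaled to each other over these promoters alone (TMM), and the median promoter had a log2 fold change of -0.35. Above and below input are therefore relative to the promoters of the table and are not absolute amounts of the mark. The 2 experiments are described as independent, but the animals behind them are not listed, so the p-values measure the spread between these libraries. In bulk tissue, a mark carried by more of the cells and more of the mark in each cell cannot be told apart. As a guide to the scale, Actb, the study's negative control, had 0 and 1 ChIP reads against 31 and 53 input reads and was below input. Magea2, its positive control, had 3 and 7 against 6 and 16 (ratio 0.455, log2 fold change 1.12). It was not called (adjusted p = 0.170), so a promoter that is not called may still carry the mark. Reads at promoters do not measure expression and cannot check the labelled cell type. For scale, 18.6% of all promoters were called above input and 17.0% below, and the marker lists that follow are too short to be set against these shares. Of the promoters of smooth muscle contractile genes, 1 of 7 was above input (Smtn) and 2 were below (Lmod1 and Myh11). The markers of other cells gave 1 of 4 above and 0 below for leukocytes (Ptprc), 1 above and 1 below of 4 for endothelium (Tie1 and Pecam1), and 0 above and 1 below of the 3 hepatocyte genes present (Apoa2).

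H3K9me2 was above input at the promoters of many drug- and fatty acid-metabolising P450 genes, and at few promoters of the other P450 families. Of the 60 Cyp2, Cyp3 and Cyp4 promoters, 34 were above input, 3 were below and 23 were not called. Of the 22 promoters of other families, 1 was above input (Cyp11b2), 1 was below (Cyp46a1) and 20 were not called. Over all promoters of the table, 18.6% were called above input and 17.0% below. The median H3K9me2/input ratio was 0.551 in Cyp2, Cyp3 and Cyp4, 0.148 in the other families and 0.162 over all promoters. The 75th percentile of the ratio, which the study took as the lower limit of high H3K9me2, was 0.343, and 41 of the 60 promoters and 3 of the 22 lay at or above it (Cyp7a1, Cyp11b2 and Cyp21a1), compared with 25.0% of all promoters by construction. The members nearest to this limit were Cyp4f40 (0.356), Cyp7a1 (0.359) and Cyp2d26 (0.383) above it, and Cyp2j13 (0.320), Cyp8b1 (0.310) and Cyp1a1 (0.288) below it.

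**Figure D1:**
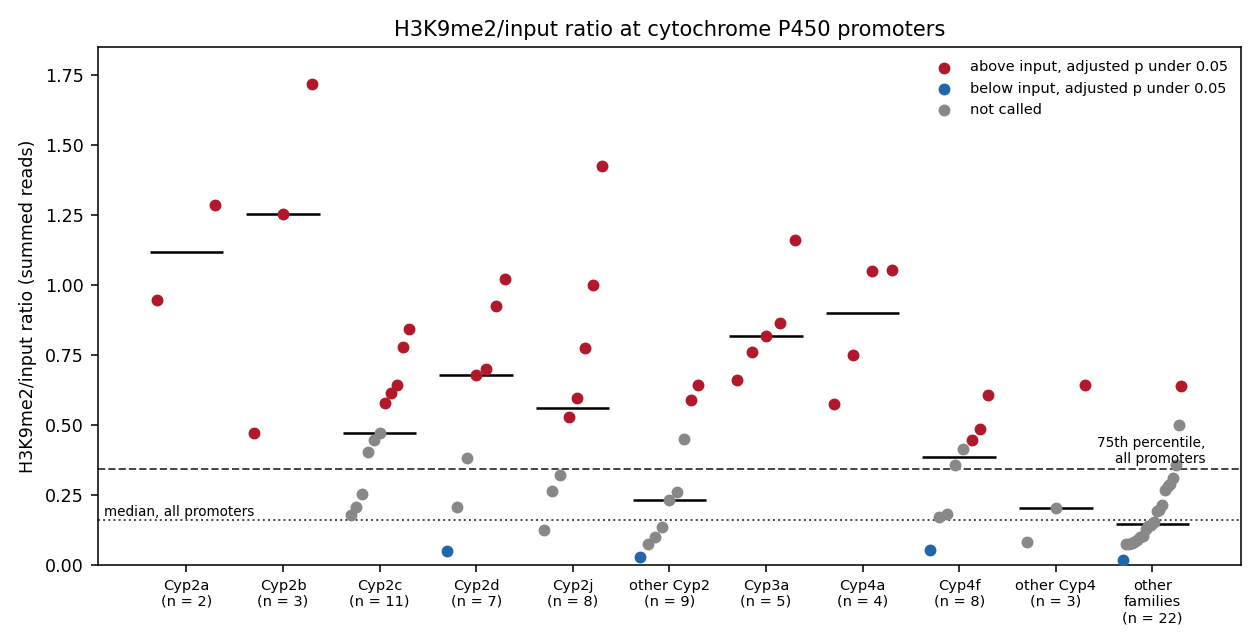
H3K9me2/input ratio (vertical axis, summed ChIP reads over summed input reads, no unit) of the 82 P450 promoters by subfamily, 1 point a promoter, with black bars for the medians and lines for the 75th percentile and the median of all promoters. All 14 Cyp2a, Cyp2b, Cyp3a and Cyp4a points are red (above input), while the 22 promoters of other families lie mostly near the median of all promoters.

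When the reads of each group were summed, 771 and 958 ChIP reads (v102 and v134) stood against 1058 and 2126 input reads at the Cyp2, Cyp3 and Cyp4 promoters, a ratio of 0.543 (95% Wilson interval 0.512 to 0.576, counting error only, and likewise where a range follows the ratio of a promoter below). At the other families, 112 and 135 ChIP reads stood against 451 and 879 input reads, a ratio of 0.186 (0.162 to 0.213). The first ratio was 2.92 times the second, and it was 2.93 times the second in each experiment on its own, after scaling each library to its total. This factor was 2.93 for Cyp2, 4.54 for Cyp3 and 2.51 for Cyp4. With the experiment as a block, 34 of the 82 members were above input (15.8% of all promoters) and 1 below (8.3%). DESeq2 called 27 above (11.6%) and 0 below (0.102%), with 33 and 2 at an unadjusted p under 0.05 (3987 and 2497 of all 26354 promoters). It gave no adjusted p at 41 of the 82 members and at 17883 of all promoters. The 4 members below input in the main fit were among those 41, so DESeq2 could not call them. Library totals in place of TMM gave 34 above (16.3%) and 6 below (21.5%), and with a minimum of 20 reads in both inputs 14 of 36 were above (17.5%) and 1 below (12%). Without the v102 input 24 were above (11.5%) and 0 below (1.88%), without the v134 input 25 (11.7%) and 0 (1.95%), without the v134 ChIP library 32 (12.9%) and 1 (8.83%), and without the v102 ChIP library 36 (19.1%) and 6 (15.2%). At an unadjusted p under 0.05, 4 members were below input without the v102 input and 1 without the v134 input. Members are not replicates of a condition, and no test was made of this difference.

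By subfamily median, the ratio was highest in Cyp2b (1.25, 3 promoters) and Cyp2a (1.12, 2 promoters), which hold genes known for induction by phenobarbital-like compounds (Cyp2b) and for hydroxylation of steroids and coumarin-like compounds (Cyp2a). At Cyp2b23 there were 71 and 63 ChIP reads (v102 and v134) against 25 and 53 input reads. This was the highest ratio of any member, 1.72, with a log2 fold change over input of 3.09 ± 0.34 (SE; adjusted p = 7.33e-17). Cyp2b19, a keratinocyte epoxygenase, had 32 and 42 ChIP reads against 14 and 45 input reads, a ratio of 1.25 (log2 fold change 2.63 ± 0.35, adjusted p = 8.31e-12). Cyp2a12 had 16 and 20 ChIP reads against 12 and 16 input reads, and Cyp2a22 had 11 and 26 against 10 and 29. Both were above input, by 2.60 ± 0.45 and 2.19 ± 0.42 on the log2 scale. Cyp2b10, the member best known as a target of the nuclear receptor CAR, had a lower ratio of 0.471, with 11 and 22 ChIP reads against 23 and 47 input reads. It passed the test (adjusted p = 0.0142), but not with DESeq2 (0.113). The call was also lost without the v134 ChIP library (log2 fold change 0.86), the v102 input (1.12) or the v134 input (1.24).

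All 5 Cyp3a promoters were above input. This subfamily holds the main hepatic steroid and drug hydroxylases, targets of the nuclear receptor PXR. Cyp3a57 had 19 and 24 ChIP reads against 12 and 25 input reads, a log2 fold change of 2.48 ± 0.41 (adjusted p = 5.79e-08). Cyp3a11, the most studied mouse member, had 25 and 32 against 22 and 44 (2.06 ± 0.36, adjusted p = 3.03e-07). The ratios of the 5 ranged from 0.661 (Cyp3a13) to 1.16 (Cyp3a57). The calls at Cyp3a16 and Cyp3a25 rested on 11 and 11, and on 10 and 11, input reads. Without the v102 input library their adjusted p was 0.115 and 0.160, without the v134 input library 0.277 and 0.326, and at Cyp3a16 it was 0.0962 without the v134 ChIP library.

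Among the Cyp4 enzymes, which hydroxylate fatty acids and eicosanoids, the Cyp4a and Cyp4f subfamilies had different patterns. All 4 Cyp4a promoters, targets of the fatty acid receptor PPAR alpha, were above input. Cyp4a10 had 15 and 23 ChIP reads against 9 and 27 input reads, and Cyp4a14 had 21 and 40 against 22 and 36. Their log2 fold changes were 2.35 ± 0.42 and 2.31 ± 0.36, and their ratios, 1.06 and 1.05, were close to each other. The call at Cyp4a32 was lost without the v134 ChIP library (adjusted p = 0.246), the v102 input (0.125) or the v134 input (0.0768), and with DESeq2 (0.0700). Of the 8 Cyp4f promoters, whose products act on leukotrienes and other eicosanoids, 3 were above input (Cyp4f14, Cyp4f15 and Cyp4f18), 1 was below (Cyp4f13) and 4 were not called, with a median ratio of 0.385. Cyp4f13 had 3 and 1 ChIP reads against 25 and 50 input reads, a ratio of 0.0533 (0.0203 to 0.140), and its adjusted p of 0.0207 became 0.0577 with the experiment as a block. The call at Cyp4f18 was also lost with the block (adjusted p = 0.0749). With DESeq2, the calls at Cyp4f15 and Cyp4f18 were lost (adjusted p = 0.0505 and 0.192). Without the v102 ChIP library, the v102 input or the v134 input, the adjusted p of Cyp4f18 was 0.161, 0.132 and 0.404. Without the v134 ChIP library, the v102 input or the v134 input, that of Cyp4f13 was 0.316, 0.192 and 0.251.

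The remaining Cyp2 subfamilies held both high and low members. In Cyp2j, which makes epoxides from arachidonic acid, 5 of 8 promoters were above input. The pseudogene Cyp2j7-ps was the highest of them, with 27 and 30 ChIP reads against 12 and 28 input reads (log2 fold change 2.79 ± 0.38, adjusted p = 4.99e-11). Cyp2j5, known from kidney and liver, followed with 20 and 29 against 13 and 36 (2.28 ± 0.38), whereas Cyp2j6 had 3 and 5 against 21 and 43 and was not called. In Cyp2d, 4 of 7 were above input and 1 below. Cyp2d40 had 23 and 22 ChIP reads against 14 and 30 input reads, and Cyp2d34 had 22 and 29 against 24 and 31, with log2 fold changes of 2.31 ± 0.40 and 2.12 ± 0.38. Cyp2d22, by contrast, had 1 and 2 ChIP reads against 23 and 35 input reads. Its ratio was 0.0517 (0.0172 to 0.156), below input at an adjusted p of 0.0386, which was 0.0871 with the experiment as a block and between 0.112 and 0.322 without any 1 of the 4 libraries. In Cyp2c, the arachidonic acid and drug epoxygenases, 5 of 11 were above input, and the ratios ranged from 0.178 to 0.843. Calls above input were lost without the v134 input at Cyp2j12 (adjusted p = 0.166), Cyp2d12 (0.0967), Cyp2c54 (0.143) and Cyp2c50 (0.0708). Those at Cyp2j12 and Cyp2c50 were also lost without the v102 input (0.0624 and 0.125) or 1 ChIP library (v102 for Cyp2j12, 0.0909, and v134 for Cyp2c50, 0.158). The call at Cyp2j12 was lost with DESeq2 as well (adjusted p = 0.0821). Neighbouring Cyp2c37 and Cyp2c68 had 2 and 15 ChIP reads each, so that they were in the top quartile of v134 and not of v102.

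Some members of these families have relatives elsewhere in the genome but none of their own family within 500 kb. There were 8 such promoters, of which 3 were above input (Cyp2e1, Cyp3a13 and Cyp4f18), 1 was below (Cyp2u1) and 4 were not called, with a median ratio of 0.197. The 50 placed promoters with a family member within 500 kb had a median ratio of 0.584, and 30 were above input and 2 below. The 2 sets also differed in CpG content (observed over expected), with a median of 0.169 in the 8 and 0.125 in the 50. Among the 8 it was 0.0737 to 0.126 in the 3 above input and 0.147 to 0.637 in the others. The part of CpG content in this difference was not tested. Cyp2e1, the ethanol-oxidising enzyme of liver, had 15 and 12 ChIP reads against 11 and 31 input reads, a log2 fold change of 1.65 ± 0.46 (adjusted p = 0.00207, and 0.0824 without the v102 input library). Cyp2u1, a fatty acid hydroxylase of brain and thymus, had 1 and 1 against 26 and 46, a ratio of 0.0278 (0.00750 to 0.103, adjusted p = 0.00392). It was the only one of the 4 members below input that remained so with the experiment as a block (adjusted p = 0.0185), while without the v134 ChIP library, the v102 input or the v134 input its adjusted p was 0.0634, 0.114 and 0.0963. Cyp2r1, the vitamin D 25-hydroxylase, had 5 and 5 ChIP reads against 26 and 48 input reads. Cyp4v3, a fatty acid hydroxylase whose human counterpart is linked to a retinal dystrophy, had 3 and 1 against 23 and 25, and Cyp2w1 had 4 and 1 against 21 and 29. None of these 3 was called, and neither was Cyp2s1, with 3 and 2 against 24 and 43. The Cyp2w1 window overlaps that of Cox19, so those reads are shared.

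The families outside Cyp2, Cyp3 and Cyp4 are described by their tasks. Of the 6 promoters for steroid hormone synthesis, only Cyp11b2, the aldosterone synthase of the adrenal cortex, was called. It had 11 and 12 ChIP reads against 10 and 26 input reads, a log2 fold change of 1.63 ± 0.49 (adjusted p = 0.00535, with 0.124 without the v102 input library and 0.0672 without the v134 input library). Its close relative Cyp11b1, the 11-beta-hydroxylase, had 7 and 8 against 15 and 38 and was not called. In the windows of both, 82.1% of 64-base words occur once in the genome, so reads may have been lost or exchanged between them. Cyp21a1, the 21-hydroxylase, had 5 and 6 against 9 and 13, and with so few reads its ratio had an interval from 0.246 to 1.02. Cyp17a1 and Cyp11a1, the 17-alpha-hydroxylase and the side-chain cleavage enzyme, had ratios of 0.0822 and 0.100, and Cyp19a1, the aromatase, had 1 and 8 ChIP reads against 17 and 53 input reads (0.129).

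**Figure D2:**
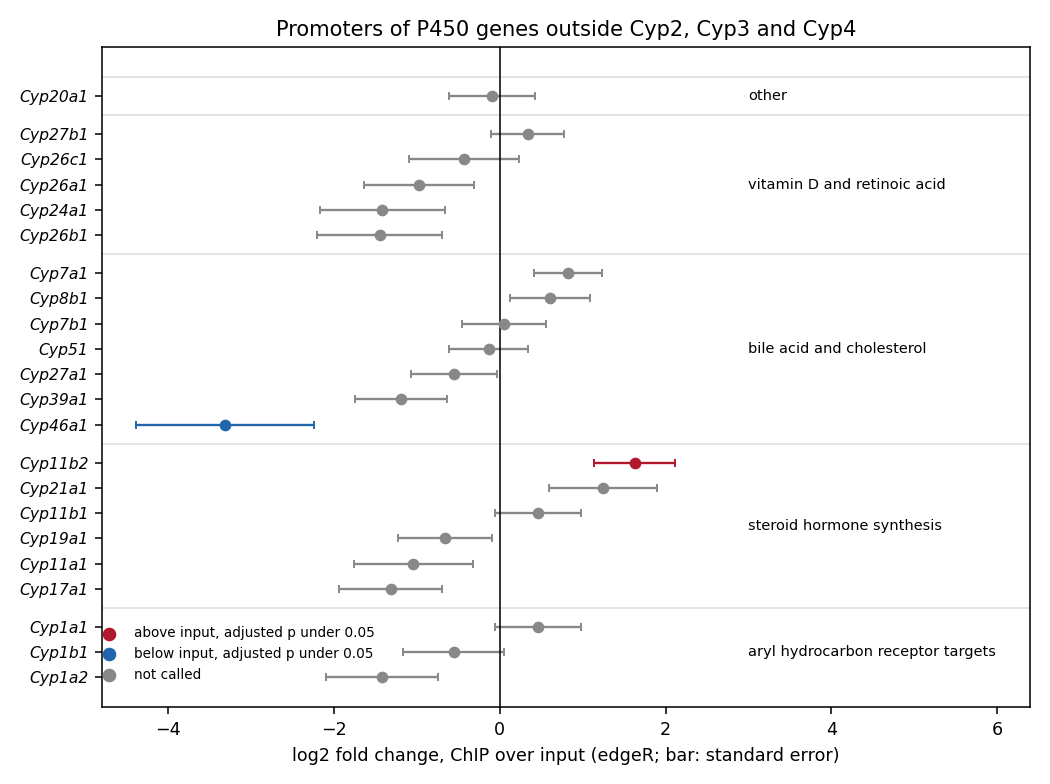
Log2 fold change of ChIP over input from the edgeR fit (horizontal axis, log2 scale, bars 1 standard error) for the 22 P450 promoters outside Cyp2, Cyp3 and Cyp4, grouped by the task of the enzyme. Cyp11b2 (1.63) lies above 0 and Cyp46a1 (-3.32) below it with an adjusted p under 0.05, and the other 20 are not called.

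Among the 7 promoters for bile acid and cholesterol metabolism, 0 were above input and 1 was below. At an unadjusted p under 0.05, 2 of the 22 promoters outside Cyp2, Cyp3 and Cyp4 were above input and 4 below, over all tasks. Of all 26354 promoters, 5646 were above and 6542 below at this limit. Cyp51, the lanosterol demethylase of cholesterol synthesis, had 3 and 12 ChIP reads against 30 and 48 input reads, a ratio of 0.192 (0.111 to 0.332). Cyp27a1, the mitochondrial sterol 27-hydroxylase, had 3 and 8 against 30 and 47, a ratio of 0.143 (0.0767 to 0.266). Neither was called, with log2 fold changes of -0.14 ± 0.48 and -0.56 ± 0.52. Cyp7a1, the rate-limiting enzyme of bile acid synthesis in liver, had 12 and 16 ChIP reads against 21 and 57 input reads (log2 fold change 0.82 ± 0.41, adjusted p = 0.101, and 0.0301 with at least 20 reads in both inputs). Cyp8b1, the sterol 12-alpha-hydroxylase, had 11 and 7 against 16 and 42, and Cyp7b1, the oxysterol 7-alpha-hydroxylase, had 8 and 6 against 25 and 40. Cyp39a1, a further oxysterol 7-alpha-hydroxylase, had 0 and 8 against 23 and 67, and its window overlaps that of Slc25a27. Cyp46a1, the cholesterol 24-hydroxylase of neurons, had 1 and 0 ChIP reads against 12 and 41 input reads, the lowest ratio of any member (0.0189, 0.00329 to 0.108). Its adjusted p of 0.00961 became 0.0512 with the experiment as a block, and was 0.153, 0.0862 and 0.385 without the v134 ChIP library, the v102 input and the v134 input.

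None of the 5 promoters for vitamin D and retinoic acid turnover and none of the 3 Cyp1 promoters was called. Cyp27b1, which activates vitamin D, had 6 and 15 ChIP reads against 32 and 46 input reads, and Cyp24a1, which inactivates it, had 4 and 0 against 15 and 38. The window of Cyp24a1 overlaps that of Pfdn4. The retinoic acid hydroxylases Cyp26a1, Cyp26b1 and Cyp26c1 had ratios of 0.105, 0.0755 and 0.152. In the Cyp1 family, whose genes are induced through the aryl hydrocarbon receptor, Cyp1b1 had 5 and 3 ChIP reads against 20 and 37 input reads, a ratio of 0.140 (0.0680 to 0.290, log2 fold change -0.56 ± 0.61). Cyp1a1 had 6 and 9 against 21 and 31, and Cyp1a2 had 4 and 1 against 25 and 40. Cyp20a1, an enzyme without a settled substrate, had 4 and 9 against 26 and 40. Some of these uncalled promoters passed the test as below input when a ChIP library was left out. Without v102 this held for Cyp24a1 (adjusted p = 0.00526), Cyp1a2 (0.0227) and Cyp17a1 (0.0136), and without v134 for Cyp39a1 (0.00458).

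The members were followed along 7 arrays of at least 3 Cyp2, Cyp3 or Cyp4 promoters with gaps of up to 500 kb, placed by the GENCODE start sites on GRCm38. In the Cyp2a, Cyp2b, Cyp2f, Cyp2g and Cyp2t array (chr7:26686437-27153714), 5 of 7 were above input with a median ratio of 0.949, and the 25 promoters of other genes within 500 kb outside it had a median ratio of 0.148, with 2 above input. The members at one end of this array, Cyp2f2 (0.232) and Cyp2t4 (0.450), were not called. In the Cyp3a array (chr5:145345279-146009618) the 4 members had a median ratio of 0.841, compared with 0.141 in the 18 flanking promoters, of which 0 were above input and 3 below. The Cyp4a, Cyp4b and Cyp4x array (chr4:115134281-115647723) had a median of 0.696 and its 22 flanking promoters 0.126. Here Cyp4b1, a fatty acid and pneumotoxin hydroxylase of lung, was above input with 21 and 15 ChIP reads against 18 and 38 input reads, and Cyp4x1 at the other end was not, with 4 and 9 against 19 and 45.

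The Cyp2c array (chr19:39007019-40187333) had a median ratio of 0.525 over 10 members and the 8 flanking promoters a median of 0.0666. The first 3 members, Cyp2c55, Cyp2c65 and Cyp2c66, were not called. The windows of this array had a median GC content of 37.3%, and with the GC trend of all promoters removed the median percentile of its members moved from 84.0 to 45.2, with Cyp2c65 the lowest at 13.9 and Cyp2c70 the highest at 84.6. In the other 6 arrays the median percentile with the trend removed lay between 78.1 (Cyp2j) and 98.1 (the Cyp2a to Cyp2t array). In the Cyp2d array (chr15:82380260-82794294) the median was 0.679, compared with 0.131 in 27 flanking promoters, and the 4 members above input lay next to each other, with Cyp2d22 and Cyp2d10 on one side and Cyp2d26 on the other. The Cyp2j array (chr4:96077546-96664154) had a median of 0.527 and only 3 flanking promoters (0.230). The Cyp4f array (chr17:32452723-32947402) differed least from its surroundings, with a median of 0.356 in its 7 members, 0.324 in 5 promoters of other genes inside it and 0.246 in 21 flanking promoters. Over the 7 arrays, 6 of the 14 first or last members were above input and 2 below, and 23 of the 34 members between them were above and 0 below. The members at the ends had a higher median CpG content (observed over expected 0.190) than those between them (0.114). This count was made after the values were seen and was not tested.

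**Figure D3:**
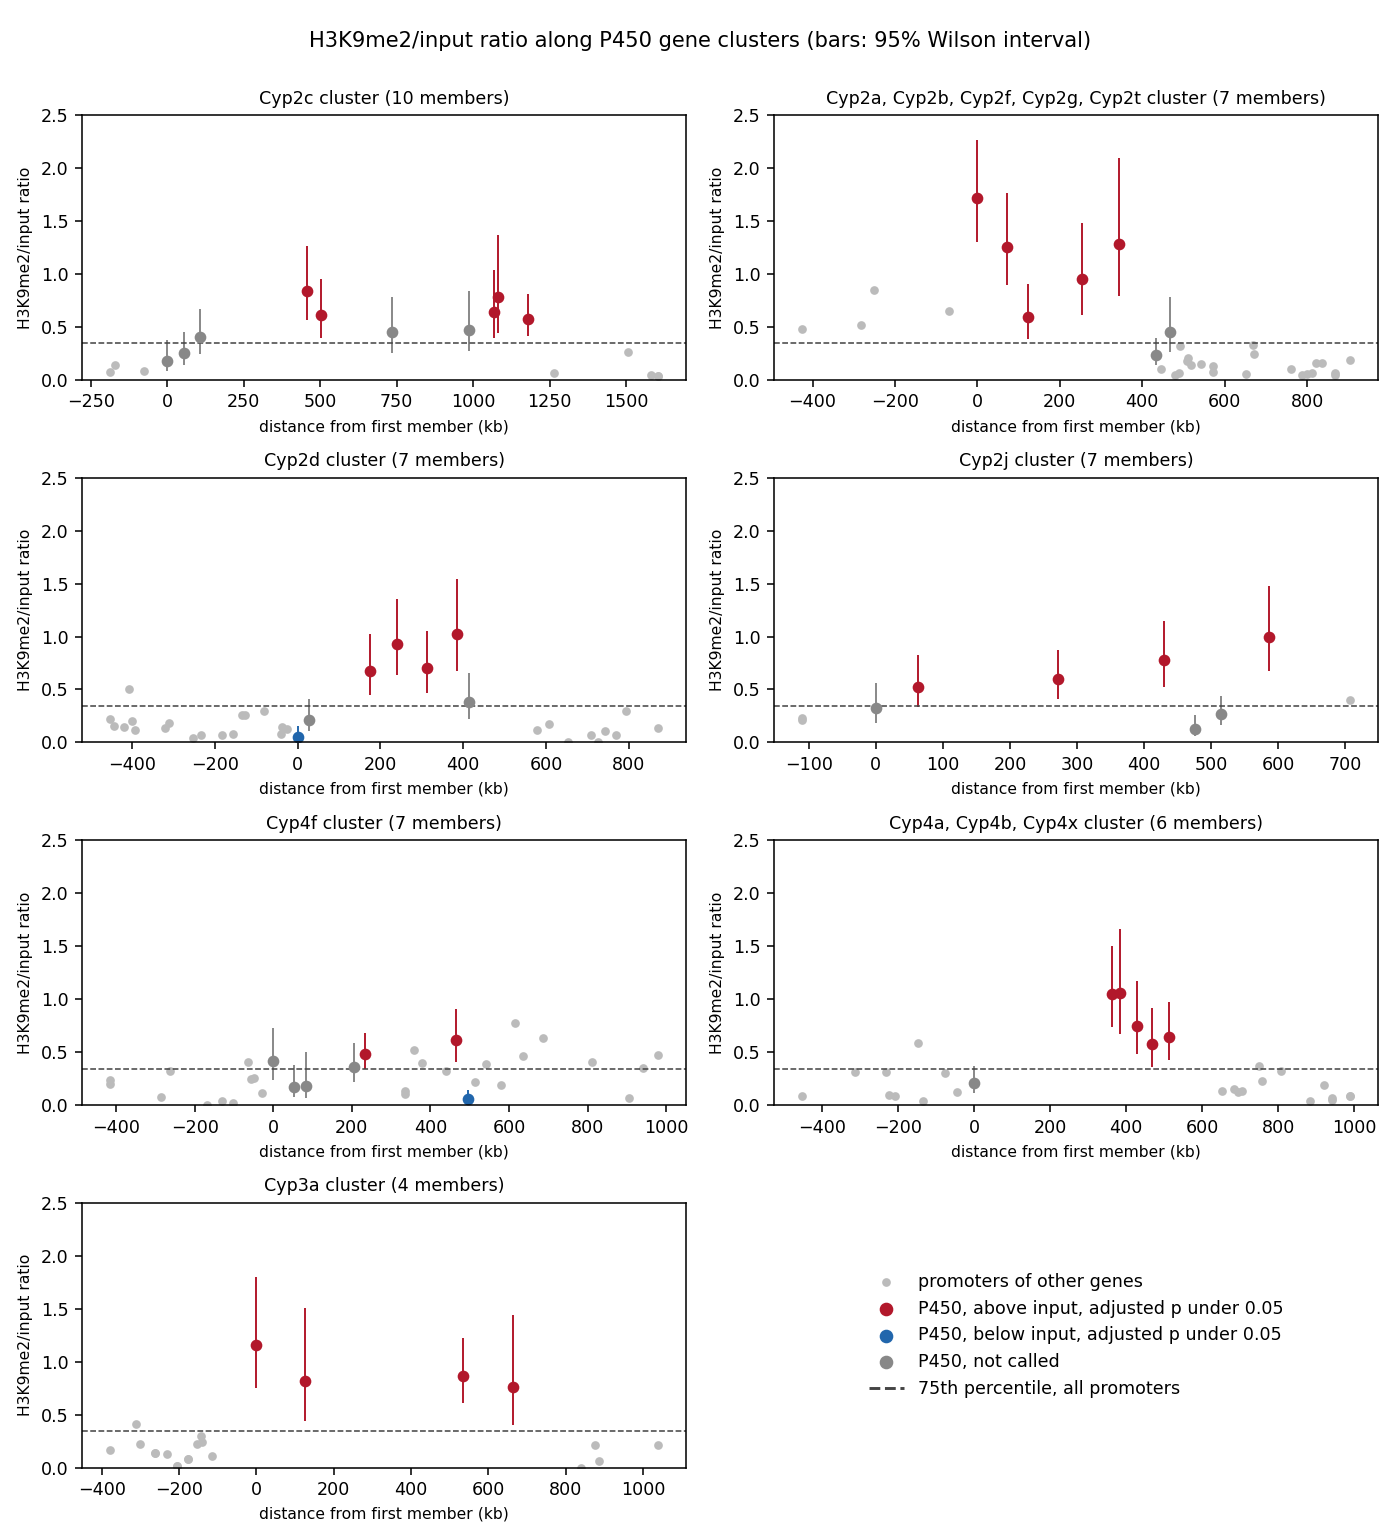
H3K9me2/input ratio (vertical axes, no unit) against the distance of each start site from the first member of its array (horizontal axes, kb) in 7 P450 arrays, with 95% Wilson intervals for P450 promoters and small grey points for promoters of other genes. In the Cyp3a panel the 4 members (median 0.841) lie over every grey point, while in the Cyp4f panel (median 0.356, flanking median 0.246) the points overlap.

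CpG content moved with the ratio. It was measured over the 2000 bases of each window as the observed over the expected number of CG dinucleotides for the base composition. The median was 0.128 in 58 placed Cyp2, Cyp3 and Cyp4 promoters, 0.308 in the 22 of other families and 0.441 in all placed promoters. Over the 80 placed members, Spearman's rho of the log2 H3K9me2/input ratio was -0.747 with CpG content and -0.568 with GC content, and over all placed promoters it was -0.519 and -0.549. These are correlations across promoters that share the same libraries, and are descriptions only. Of the Cyp2, Cyp3 and Cyp4 promoters with CpG content under 0.25, 32 of 47 were above input (68.1%) and 1 was below, with a median ratio of 0.609. Among all promoters under this value, 2696 of 6861 were above input (39.3%), with a median ratio of 0.333. The 10 CpG-poor promoters of other families included 1 above input, with a median ratio of 0.286. At or over 0.25, 1 of 11 Cyp2, Cyp3 and Cyp4 promoters was above input (Cyp4b1) and 2 were below (Cyp2u1 and Cyp2d22), with a median ratio of 0.171, and of the 12 of other families 0 were above and 1 below, with a median of 0.142. Of all promoters in this class 7.86% were above input and 22.9% below, with a median ratio of 0.119, and the Cyp2, Cyp3 and Cyp4 shares of 9.09% and 18.2% lay near these.

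**Figure D4:**
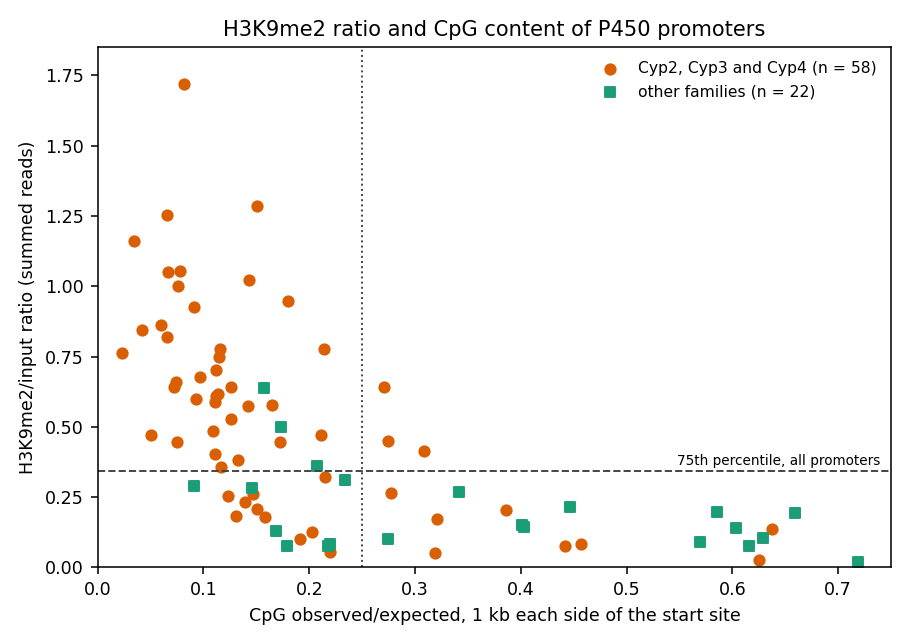
H3K9me2/input ratio (vertical axis, no unit) against CpG observed over expected in the 2000-base window (horizontal axis, no unit) for the 80 placed P450 promoters, with circles for Cyp2, Cyp3 and Cyp4 and squares for other families. Most circles lie left of 0.25 and above the 75th percentile of all promoters (0.343), and squares left of 0.25 lie mostly below that line.

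Among the CpG-poor members alone, the summed ratio of Cyp2, Cyp3 and Cyp4 was 2.60 times that of the other families (2.13 to 3.17), with 2.33 in v102 and 2.83 in v134. These 2 sets were not matched, with a median CpG content of 0.114 against 0.176 and a median GC content of 44.15% against 49.3%. Among the members with higher CpG content it was 1.44 times (1.10 to 1.89), with 1.73 and 1.22. Both ranges cover counting error only, and not the spread between promoters or experiments. The part of CpG content in the difference between the families was not tested further. Because related genes have similar sequences, the share of 64-base words of each window that occur once in the genome was also counted. In 15 Cyp2, Cyp3 and Cyp4 promoters this share was under 95%, and 10 of them were above input with a median ratio of 0.643. Of the 43 with a share of at least 95%, 23 were above input and 3 below, with a median ratio of 0.471. Cyp2b23, Cyp2b19, Cyp2j5 and Cyp4a14 had only unique words. Soft-masked repeats covered a median of 19.1% of the windows of Cyp2, Cyp3 and Cyp4 promoters and 14.0% of all windows, and rho of the log2 ratio with repeats was 0.261 over the members.

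The experiments were compared member by member, on log2 ratios scaled to the library totals with a pseudocount of 1 read. The 2 experiments had a Spearman's rho of 0.733 over the 60 Cyp2, Cyp3 and Cyp4 promoters, 0.308 over the 22 of other families and 0.688 over all promoters. In both experiments 35 of the 60 were in the top quartile, compared with 17.8% of all promoters, 7 were in it in v102 only and 4 in v134 only. Of the other families, 2 were in the top quartile of both (Cyp11b2 and Cyp21a1). The log2 ratio was above 0 in both experiments at 41 of the 60 and below 0 in both at 8, while among the 22 the numbers were 5 and 9. Here 0 is set by the library totals, with which the median promoter of the table had a log2 fold change of -0.50 in the edgeR fit. The shares of all promoters above or below 0 in both experiments are not given here, so these numbers are descriptions only. The widest gap was at Cyp24a1, with 0.25 in v102 and -3.05 in v134, followed by Cyp2c55, with 1.15 and -1.30.

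**Figure D5:**
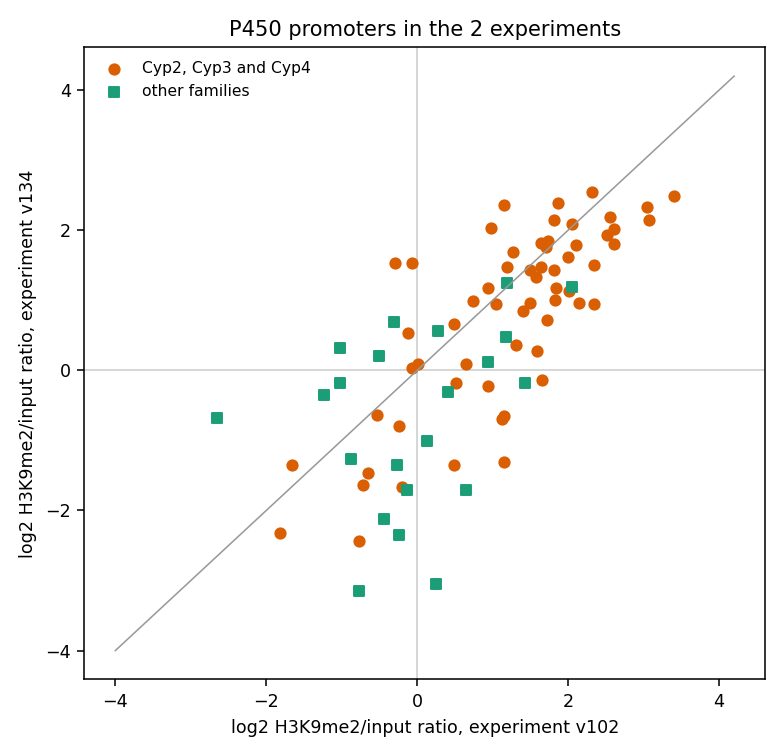
Log2 H3K9me2/input ratio of each P450 promoter in experiment v102 (horizontal axis) and v134 (vertical axis), scaled to the library totals with a pseudocount of 1 read, with circles for Cyp2, Cyp3 and Cyp4, squares for other families and the line of equality. At 41 of 60 circles and 5 of 22 squares both values are above 0, and the share of all promoters is not shown.

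The promoters of genes that work with the P450 enzymes were counted in the same way. Of 28 genes listed for electron supply, substrate supply, epoxide hydrolysis and regulation, 27 were in the table. Of these, 2 were above input (7.41%, against 18.6% of all promoters), 7 were below (25.9%, against 17.0%) and 18 were not called, with a median ratio of 0.120. Their median CpG content was 0.446, compared with 0.441 in all placed promoters, and 7 of the 27 were under 0.25. Of all promoters at or over 0.25, 7.86% were above input and 22.9% below. Under 0.25 these shares were 39.3% and 5.84%. The part of CpG content in the shares of the 27 was not tested. The 2 of the 27 above input were regulators. Nr1h4, the bile acid receptor FXR, had 21 and 20 ChIP reads against 27 and 38 input reads (log2 fold change 1.58 ± 0.38, adjusted p = 0.000390), and Nr5a1, the steroidogenic factor SF1, had 15 and 17 against 27 and 41 (1.16 ± 0.40, adjusted p = 0.0164). Nr1h4 remained above input without any 1 library, and Nr5a1 was no longer called without the v102 input or without the v134 input. With DESeq2, Nr1h4 was still called (adjusted p = 0.0244) and Nr5a1 was not (0.115).

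Among the electron donors, Por, the oxidoreductase that serves nearly all microsomal P450 enzymes, had 3 and 3 ChIP reads against 19 and 34 input reads and was not called. The mitochondrial donors were both below input, with 0 and 2 against 22 and 34 at Fdx1 (adrenodoxin) and 0 and 0 against 19 and 43 at Fdxr (its reductase, adjusted p = 0.000382). Ephx1, the microsomal epoxide hydrolase, also had 0 and 0 ChIP reads, against 27 and 41 input reads (adjusted p = 0.000146). The other 4 below input were Tbxas1, the thromboxane synthase and itself a P450 enzyme, Ahrr, the repressor of the aryl hydrocarbon receptor, Nr1i2, which encodes PXR, and Lss, the lanosterol synthase. With the experiment as a block, Fdx1, Tbxas1, Ahrr, Nr1i2 and Lss were no longer called, with adjusted p between 0.0660 and 0.195, and Fdxr and Ephx1 still were, although the adjusted p of Fdxr was 0.0561 without the v134 input. Ptgis, the prostacyclin synthase of vessel walls and a P450 enzyme under another symbol, had 2 and 4 ChIP reads against 22 and 36 input reads and was not called.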

How the data were processed

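Per the labels and the methods of the study, the authors trimmed the reads, aligned them to GRCm38 and counted those within 1 kb of each start site with SeqMonk. The submitters' processing notes name Trim Galore 0.4.2, cutadapt 1.9.1 and Bowtie2 2.2.7. Which annotation release was used and whether duplicates were removed are not given in the sources used here. The authors deposited raw read counts for the 4 libraries and an unscaled ratio, the ChIP sum over the input sum. Since the lowest summed input in the table was 21, the authors' minimum of 20 acted on the sum.

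Libraries were grouped by title. The test of ChIP against input was edgeR 4.0.16 under R 4.3.3 (glmQLFTest with TMM normalization, Benjamini-Hochberg adjustment over 26354 promoters), which was tested on simulated data. Standard errors are the log2 fold change divided by the square root of F. Alternatives were DESeq2 1.42.0, library totals, at least 20 reads in both inputs, the experiment as a block, and leaving out each library. Each ChIP has its own input per the study, which pairs the libraries. Across promoters, the v102 to v134 difference of the ChIP libraries and that of the inputs correlated at 0.104. A chi-square statistic per degree of freedom of 1.52 between the ChIP libraries and 1.28 between the inputs exceeded sampling noise, so neither pair is a copy.

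Symbols were matched to GENCODE M21 on GRCm38 (22329 promoters and 80 members with 1 gene), which need not give the start sites the authors used. Cyp2c44 and Cyp2j7-ps did not match 1 GENCODE gene by symbol, although each matched 1 RefSeq gene (Cyp2c23 and Cyp2j7). They were not placed, so the arrays and CpG contents leave them out. CpG content, repeats and unique words come from the GRCm38 genome. The table carries no molecular identifiers, so Wilson intervals cover counting error and nothing else. Other software was Python 3.11.15 with matplotlib 3.10.9, statsmodels 0.14.6, scipy 1.17.1, pandas 2.3.3 and numpy 2.4.6.

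The members and lists were chosen with earlier results of these data known. Named are Cyp51, Cyp27a1 and Cyp1b1, the 12 highest and up to 8 lowest log2 fold changes among members past the threshold, every member outside Cyp2, Cyp3 and Cyp4, members listed as alone (Cyp2e1, Cyp2r1, Cyp2s1, Cyp2u1, Cyp2w1, Cyp4v3, Cyp4x1 and Cyp4b1, of which Cyp4x1 and Cyp4b1 lie in an array and Cyp2s1 has a family member within 500 kb), those nearest the 75th percentile, and the pathway list. Other members were named after their values were seen.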

Additional observations from a re-analysis of the deposited data

How the results depend on the processing

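Of the 35 P450 promoters above input, 34 remained so with library totals, 34 with the replicate block, 35 without mitochondrial promoters and 27 with DESeq2, which left the adjusted p undefined at 41 members (33 above and 2 below at an unadjusted p under 0.05). Leaving out 1 library gave 24 to 36 above input. Under a minimum of 20 reads for both inputs, 14 of the 36 members tested were above. The count below input, 4, was 1 with the replicate block and with that minimum, 0 with DESeq2, and 0 to 6 with 1 library left out, when the remaining library of that arm is assumed to vary like the other. The 4 members below input had no adjusted p with DESeq2, so it could not call them. The cause of the other changes was not tested. Fewer members enter with the minimum and fewer libraries when 1 is left out, while the block and library totals use all 82 members and all 4 libraries. The 44 members in the top quartile became 16 of 36 with the minimum, and 42 to 47 in single experiments. Library totals moved the log2 fold change of the median promoter from -0.35 to -0.50.

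The median percentile of the log2 ratio was 86.1 for Cyp2, Cyp3 and Cyp4 and 45.0 for the other families. It was 90.7 and 51.3 with the minimum, 82.8 to 86.7 and 47.6 to 51.4 in single experiments, and 84.8 and 60.3 with the GC trend removed by a lowess fit (fraction 0.3), so the gap between the groups narrowed with that correction. The ratio of the groups, 2.92, was 2.89 with the minimum, 2.93 in each experiment, 3.14 for members within 500 kb of their family, 2.85 without pseudogenes and 2.54 from mean log2 ratios. Chosen after seeing the data, it was 2.60 for CpG-poor members and 3.15 for members with at least 95% unique words.

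The direction of 8 uncalled promoters turned, and the cause was not tested. With 1 library left out, the log2 fold change ranged from -0.52 to 0.27 at Cyp20a1, from -0.29 to 0.50 at Cyp7b1, from -1.17 to 0.44 at Cyp51, from -2.54 to 0.047 at Cyp19a1, from -0.18 to 0.75 at Cyp27b1, from -1.09 to 0.021 at Cyp1b1, from -2.33 to 0.59 at Cyp26c1 and from -0.45 to 0.33 at Cyp4x1. With the minimum it was 0.26 at Cyp20a1 and 0.22 at Cyp51, with library totals -0.091 at Cyp7b1, and without mitochondrial promoters, chosen after seeing the data, 0.0049 at Cyp4x1. Of 353 values of named members under the alternatives, 310 kept direction and call, 7 became called, 21 lost the call and 15 turned. A run without any minimum could not be made, because the table starts at 21 summed input reads.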
